A study of Mus musculus with 40 samples.

Results

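Ccng1 (cyclin G1), 4 further targets of the p53 pathway (Cdkn1a, Mdm2, Gadd45a and Btg2) and Ccnd1 (cyclin D1) were followed in mouse liver under calorie restriction and meal feeding on a pair of diets. The members were chosen by symbol. They are 6 of the 16593 genes named on the array and are read by 15 of its 25697 probes. Ccng1 was chosen because its response to restriction had differed between the diets in these same arrays, so its levels are given as a description with no test. The other 5 genes were chosen as its companions in the same pathway and as a cyclin known to rise with feeding and growth.

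RNA came from livers of male C57BL/6J mice, an inbred strain, and was measured on Illumina bead arrays with 1 array per mouse. All mice had been put on their diet at 5 months of age. The NIA diet was low in sucrose (7.6% of energy) and held 17.7% of energy as fat. The WIS diet was rich in sucrose (46% of energy) and held 24.4% as fat. The 6 groups were calorie-restricted mice on the WIS diet (CR-WIS, n = 10), meal-fed mice on the WIS diet (MF-WIS, n = 4), ad libitum mice on the WIS diet (AL-WIS, n = 6), calorie-restricted mice on the NIA diet (CR-NIA, n = 9), meal-fed mice on the NIA diet (MF-NIA, n = 6) and ad libitum mice on the NIA diet (AL-NIA, n = 5). CR mice were held at 30% restriction, CR and MF mice were given their whole day's food as 1 portion at 3 pm, and their allotment was held constant from 14 months of age. Calorie intake of MF-NIA mice equalled that of both AL-WIS and MF-WIS mice, and AL-NIA mice took in the most. CR mice ate from the cage floor and AL and MF mice from a hopper, so the amount of food and the way it was given cannot be told apart between CR and the other regimens. The labels used here do not state at which age or hour livers were taken.

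The p53 protein is a transcription factor that is stabilised after DNA damage and other stresses and switches on genes that halt the cell cycle, repair DNA or start cell death. Cdkn1a encodes p21, an inhibitor of cyclin-dependent kinases that can also be induced without p53, Mdm2 encodes the ubiquitin ligase that removes p53, and Ccng1 encodes an atypical cyclin that recruits a phosphatase to Mdm2. Gadd45a is a stress sensor, Btg2 is an antiproliferative regulator of messenger RNA decay, and cyclin D1 drives quiescent hepatocytes into the cell cycle and is itself a target of nutrient and growth factor signals.

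Levels are given in log2 units from the mean of each array, so that a difference of 1 unit is a doubling, and levels of different probes are not set against each other. A probe was tested when its signal was above background, with a detection p under 0.01, on at least 4 of the 34 arrays whose deposited signals could be used, and 11334 probes met this. Of the member probes, 12 were tested: all 3 of Ccng1, all 3 of Ccnd1, both of Gadd45a, 2 of the 3 of Cdkn1a and 2 of the 3 of Mdm2. The only Btg2 probe was detected on 0 of 34 arrays and stayed between -1.19 and -0.77 in all mice, so nothing was measured about Btg2 beyond an upper bound. The third Cdkn1a probe was detected on 2 of 34 arrays and the third Mdm2 probe on 0 of 34. Between 8725 and 11199 probes were detected per array (34% to 43.6%). The number of arrays limits the precision of every value. Of 18 listed hepatocyte markers, which define the tissue, 13 were tested, and Fgb and Tat were detected on 0 of 34 arrays. AL-WIS replicate 1, CR-NIA replicate 1 and MF-WIS replicate 4 stood apart from the rest of their groups, and results that rest on them are given with and without them. P-values of group differences weigh the difference against the spread between mice within groups. That spread is 1 estimate per probe, shared by all 6 groups even where their spreads differ.

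The promoter windows of Ccng1, Cdkn1a, Mdm2 and Gadd45a, the members measured, are shown because p53 acts on these genes through short DNA elements. RefSeq (build GRCm38.p6) matched 5 of the 6 members (not Ccnd1) with 6 transcription starts, and each window holds the 250 bases before a start, on the strand of the gene. Capitals mark matches to the p53 half-site (found by its consensus), to GTAAACA (the core of forkhead factors) and to GGGCGG (the core of Sp1), each searched on both strands.
Ccng1, chr11:40755287-40755536, minus strand: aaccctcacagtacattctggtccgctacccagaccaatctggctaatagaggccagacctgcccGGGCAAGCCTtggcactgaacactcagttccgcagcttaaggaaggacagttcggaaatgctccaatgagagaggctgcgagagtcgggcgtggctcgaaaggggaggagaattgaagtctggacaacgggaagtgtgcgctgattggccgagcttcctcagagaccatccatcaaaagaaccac
Cdkn1a start 1, chr17:29090729-29090978, plus strand: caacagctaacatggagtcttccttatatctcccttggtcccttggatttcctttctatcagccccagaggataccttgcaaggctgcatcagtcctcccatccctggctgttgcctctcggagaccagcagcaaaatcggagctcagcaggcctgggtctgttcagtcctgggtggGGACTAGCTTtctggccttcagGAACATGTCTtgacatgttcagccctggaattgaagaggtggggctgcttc
Cdkn1a start 2, chr17:29093519-29093768, plus strand: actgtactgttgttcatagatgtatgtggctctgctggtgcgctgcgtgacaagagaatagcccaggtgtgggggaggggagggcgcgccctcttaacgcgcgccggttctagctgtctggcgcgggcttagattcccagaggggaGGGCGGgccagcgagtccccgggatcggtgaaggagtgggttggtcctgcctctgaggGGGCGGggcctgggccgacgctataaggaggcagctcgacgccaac
Mdm2, chr10:117710759-117711008, minus strand: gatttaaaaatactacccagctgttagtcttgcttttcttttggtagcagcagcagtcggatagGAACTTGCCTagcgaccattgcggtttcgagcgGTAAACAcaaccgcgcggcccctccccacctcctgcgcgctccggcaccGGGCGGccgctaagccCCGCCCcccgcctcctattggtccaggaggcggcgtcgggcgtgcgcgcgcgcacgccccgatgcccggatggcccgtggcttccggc
Gadd45a, chr6:67037408-67037657, minus strand: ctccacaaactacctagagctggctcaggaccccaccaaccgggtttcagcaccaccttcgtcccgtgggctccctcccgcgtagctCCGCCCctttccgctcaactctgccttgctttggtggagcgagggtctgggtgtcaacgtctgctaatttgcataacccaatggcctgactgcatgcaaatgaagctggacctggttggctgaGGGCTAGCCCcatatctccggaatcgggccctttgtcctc

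A p53 half-site began 185 bases before the Ccng1 start, 186 bases before the Mdm2 start and 40 bases before the Gadd45a start. The first start of Cdkn1a held 2 half-sites, 73 and 51 bases before it, and its second start held none in this window. Over all 32851 RefSeq promoters of the same length, 7.13% held a p53 half-site, 3.17% held GTAAACA and 32.7% held GGGCGG. Mdm2 alone among the 6 windows held GTAAACA, 153 bases before its start. Neither CACGTG, found in 6.02% of all promoters, nor TATAAA, found in 12.4%, lay in any of the 6 windows, and the Btg2 window, not printed since its probe was undetected, held 3 copies of GGGCGG, of which 2 overlap, and no half-site. As background, the best-known p53 elements of Mdm2 lie in its first intron, outside its window. A match of letters is a description, not a binding site.

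Mean Ccng1 levels on the WIS diet were lowest under restriction, and on the NIA diet they were lowest under free feeding. On its brightest probe (probe 1), Ccng1 in the 10 CR-WIS livers ran from 1.13 through a median of 1.51 to 1.74. The 4 MF-WIS livers had 1.86, 1.87, 2.10 and 2.25, and the 6 AL-WIS livers ran from 1.77 through a median of 1.96 to 2.25. All 10 CR-WIS mice therefore lay below every MF-WIS and every AL-WIS mouse, and MF-WIS and AL-WIS mice overlapped. On the NIA diet, the 9 CR-NIA livers ran from 1.30 through a median of 1.81 to 2.28. The 6 MF-NIA livers ran from 1.49 through a median of 1.79 to 2.04, and the 5 AL-NIA livers had 1.43, 1.06, 1.62, 1.48 and 1.66. All 6 AL-WIS mice lay above every AL-NIA mouse, whereas the CR-NIA and AL-NIA mice overlapped. Groups that do not overlap made up 0.556% of all tested probes for CR-WIS against AL-WIS, 1.92% for CR-WIS against MF-WIS and 1.11% for AL-WIS against AL-NIA, and nothing is read from these shares for Ccng1, since its choice used the contrast between diets.

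**Figure D1:**
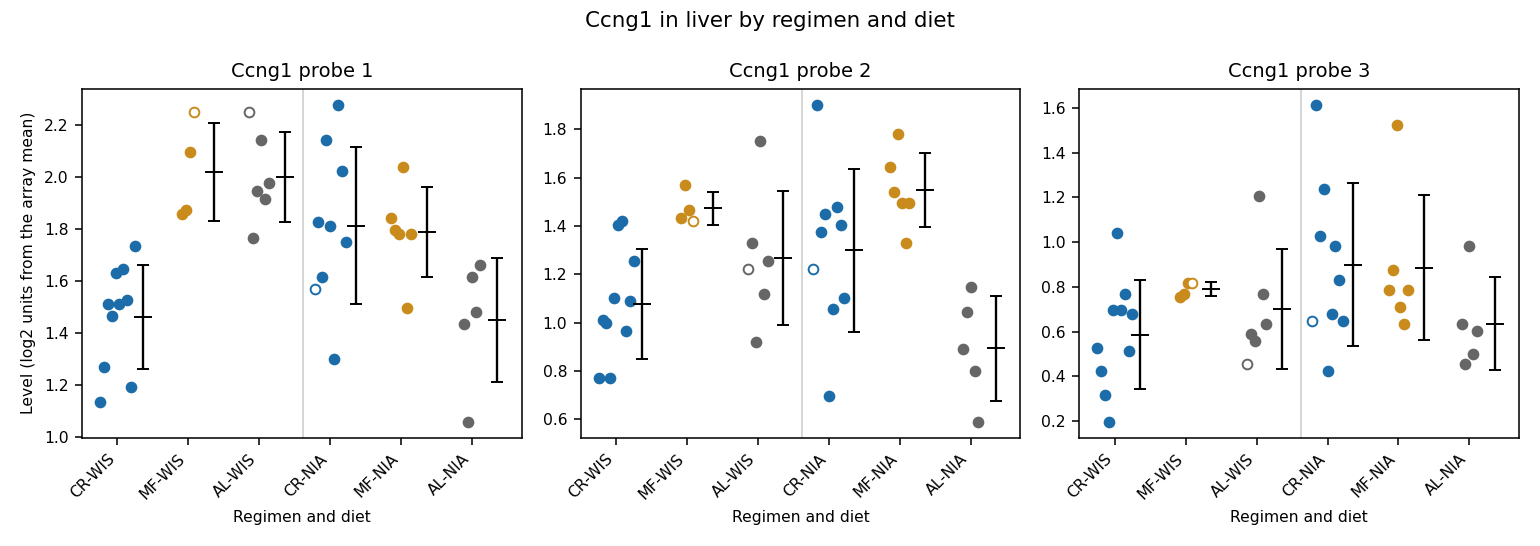
Levels of the 3 Ccng1 probes in each liver (points; open points are the 3 libraries that stand apart) by group, in log2 units from the array mean, with the group mean and SD as a bar. On probe 1 the CR-WIS points lie below all MF-WIS and AL-WIS points, with group means of 1.46, 2.02 and 2.0, and the AL-NIA points are centred at 1.45.

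In order of their means on probe 1, the groups were MF-WIS (2.02 ± 0.19, SD), AL-WIS (2.0 ± 0.17), CR-NIA (1.81 ± 0.30), MF-NIA (1.79 ± 0.17), CR-WIS (1.46 ± 0.20) and AL-NIA (1.45 ± 0.24). Neighbours in this order lay within the SD of at least 1 of the pair, except MF-NIA and CR-WIS, which still overlapped. The lowest means were those of restricted mice on the WIS diet and freely fed mice on the NIA diet. The difference of CR minus AL was -0.54 on the WIS diet (SE 0.12) and 0.36 on the NIA diet (SE 0.13). The difference between these, WIS minus NIA, was -0.90 (SE 0.17), and it was -0.88 without the 3 libraries that stand apart and between -0.97 and -0.80 when any single mouse was left out. Against meal-fed mice, CR-WIS minus MF-WIS was -0.56 (SE 0.13) and CR-NIA minus MF-NIA was 0.02 (SE 0.12). The MF minus AL differences were 0.02 (SE 0.14) on the WIS diet and 0.34 (SE 0.14) on the NIA diet. The AL-NIA mean was thus below the means of both other NIA groups, and AL-NIA mice overlapped with the mice of each. When each array was scaled by its median and median absolute deviation (MAD) instead, the CR-WIS minus AL-WIS difference of probe 1 was -0.32.

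The other Ccng1 probes shared the sign of the difference between diets and differed in its size. On probe 2, Ccng1 averaged 1.08 ± 0.23 in CR-WIS, 1.47 ± 0.07 in MF-WIS and 1.27 ± 0.28 in AL-WIS livers. It averaged 1.30 ± 0.34 in CR-NIA, 1.55 ± 0.15 in MF-NIA and 0.89 ± 0.22 in AL-NIA livers (SD). CR minus AL was -0.19 (SE 0.13) on the WIS diet and 0.40 (SE 0.14) on the NIA diet, a difference between diets of -0.59 (SE 0.18). All 6 MF-NIA mice lay above every AL-NIA mouse on probe 2, as did 3.93% of all tested probes in either direction. On probe 3, CR minus AL was -0.12 (SE 0.14) on the WIS diet and 0.27 (SE 0.15) on the NIA diet, a difference between diets of -0.38 (SE 0.21). Without AL-WIS replicate 4, the WIS difference was -0.09 on probe 2 and -0.015 on probe 3, and probe 3 gave -0.07 without CR-WIS replicate 4. The scaling also moved it: median and MAD scaling gave -0.03 on probe 2 and -0.0084 on probe 3, quantile normalization gave -0.12 and -0.03, background-subtracted, quantile-normalized signals (neqc) gave -0.04 on probe 3 and array weights gave -0.12 on probe 2. On the NIA diet, probe 3 gave 0.18 without CR-NIA replicate 2.

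The contrast of the meal-fed groups between diets was not part of the choice of Ccng1 and was tested with limma. MF-WIS minus MF-NIA was 0.23 (adjusted p = 0.606) on probe 1, -0.08 (adjusted p = 0.909) on probe 2 and -0.10 (adjusted p = 0.892) on probe 3. In this comparison 0 of 12 member probes passed an adjusted p of 0.05, where 0% of all tested probes did. An unadjusted p under 0.05 was reached by 6 of the 12, some of which read the same gene. Over all 11334 tested probes, 1190 reached it.

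Genes whose levels tracked Ccng1 probe 1 over the 40 arrays, among 7957 other genes each read by its brightest probe, were Sh3bgrl (r = 0.79), Fcho2 (0.71), Fbxo25 (0.70), Klf3 (0.67) and Dctn4 (0.66). Without the 3 libraries that stand apart, these correlations were 0.79, 0.69, 0.67, 0.68 and 0.60. The arrays share their groups and their scaling, so the values describe likeness only. Sh3bgrl, a small protein with a thioredoxin-like fold, averaged 2.34 in CR-WIS, 2.74 in MF-WIS, 2.75 in AL-WIS, 2.86 in CR-NIA, 2.71 in MF-NIA and 2.23 in AL-NIA livers. As for Ccng1, its lowest groups were CR-WIS and AL-NIA.

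Cdkn1a, which encodes the cell cycle inhibitor p21, was mostly not above background in restricted mice. Its measured level on probe 1 was lower there than in freely fed mice on both diets. The call on the NIA diet was lost without any 1 of 4 mice. Under a filter that asked for detection on more arrays, Cdkn1a was not tested. On probe 1, Cdkn1a in the 10 CR-WIS livers ran from -0.86 through a median of -0.69 to -0.29. The 4 MF-WIS livers had 0.33, -0.23, 1.36 and 1.42, and the 6 AL-WIS livers ran from -0.42 through a median of 0.61 to 2.19. The restricted mice were low and close together, while the fed groups on this diet were spread widely. On the NIA diet, the 9 CR-NIA livers ran from -0.94 through a median of -0.72 to 0.23. The 6 MF-NIA livers ran from -0.72 through a median of -0.24 to 0.20, and the 5 AL-NIA livers had -0.17, -0.44, -0.06, 1.09 and 0.85. Probe 1 was detected on 2 of 10 CR-WIS, 4 of 4 MF-WIS, 6 of 6 AL-WIS, 0 of 8 CR-NIA and 4 of 6 MF-NIA arrays with usable signals, so it met the detection filter through the groups where it was high. The highest AL-WIS value (2.19) and the highest CR-NIA value (0.23) came from libraries that stand apart, and the high AL-NIA values came from 2 of the 5 mice.

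Against AL-WIS, Cdkn1a fell in CR-WIS livers on probe 1 (log2 difference -1.33, SE 0.26, adjusted p = 0.00216, limma), with 8 of 10 CR-WIS mice below every AL-WIS mouse. The difference was -1.04 (adjusted p = 0.00297) without the 3 libraries that stand apart, and it remained past the threshold without any single library. Its size rests on CR-WIS levels of which 8 of 10 were not above background. On probe 2 the difference was -0.71 (SE 0.17, adjusted p = 0.00871), and -0.50 (adjusted p = 0.0184) without those 3. These were 2 of the 9 member probes tested in this comparison, both lower, where 13% of all tested probes passed in either direction and 6.76% were lower. With neqc signals in place of the deposited scores, the probe 1 difference was -2.58.

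Markers of other liver cells moved with Cdkn1a in the comparison of CR-WIS with AL-WIS. Of the 14 tested macrophage and Kupffer cell markers (19 listed), 11 were lower in CR-WIS, and 5 were without the 3 libraries. Over all genes 7.46% were lower, and 380 of 7958 genes were lower without the 3 libraries. The summed macrophage level on the linear scale ran from 22.2 to 68.6 in CR-WIS livers and from 39.7 to 624 in AL-WIS livers, the 624 being AL-WIS replicate 1, the liver with the highest Cdkn1a. Of the listed markers, Cd5l and Msr1 were detected on 0 of 34 arrays. Of 10 tested stellate cell markers, 7 were lower in CR-WIS (3 without the 3 libraries), and of 7 tested neutrophil markers, 3 were (0 without them). The part of these cells in the Cdkn1a difference was not tested, and in whole liver RNA fewer cells of a type and less RNA per cell cannot be told apart.

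Cdkn1a also fell in CR-WIS against MF-WIS livers, which were also given their food as 1 daily portion. The probe 1 difference was -1.34 (SE 0.30, adjusted p = 0.0106), its size again resting on CR-WIS levels of which 2 of 10 were above background, and all 10 CR-WIS mice lay below every MF-WIS mouse, where 1.92% of all tested probes did not overlap between these groups. On probe 2 the difference was -0.70 (SE 0.19, adjusted p = 0.0399). These were the 2 member probes of 9 past the threshold, where 3.34% of all tested probes passed in either direction and 2.03% were lower. Without the 3 libraries that stand apart the differences were -1.10 (adjusted p = 0.0123) and -0.54 (adjusted p = 0.0409). The probe 1 call was lost without MF-WIS replicate 4 alone (-1.10, adjusted p = 0.0686). The probe 2 call was lost without any one of CR-WIS replicates 1, 2, 5, 6, 7, 8 and 10 or MF-WIS replicates 1, 3 and 4, with an adjusted p of up to 0.17 without MF-WIS replicate 4. With neqc, the probe 1 difference was -2.59. Of the 14 macrophage markers, 0 passed in this comparison, with or without the 3 libraries (2 at an unadjusted p under 0.05), and their summed level ran from 22.2 to 68.6 in CR-WIS and from 28.0 to 53.6 in MF-WIS livers.

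On the NIA diet, Cdkn1a probe 1 was not detected on any of the 8 CR-NIA arrays with usable signals. Its level in CR-NIA livers is therefore a bound. By the group means, Cdkn1a was at least 1.53-fold lower in CR-NIA than in AL-NIA livers. The measured means were -0.64 and 0.25 (difference -0.89, SE 0.28, adjusted p = 0.0316). Detection in AL-NIA livers is not known, since none of their arrays had a usable detection call. Each CR-NIA array entered that bound at the group's mean lowest detected signal or at its own level, whichever was higher. This was 1 of 9 member probes past the threshold, where 11.6% of all tested probes passed in either direction and 6.93% were lower. Without the 3 libraries that stand apart, the difference was -1.0 (adjusted p = 0.000919). Then 3 of 9 member probes passed, all lower, where 27.4% of all tested probes passed in either direction. The call was lost without AL-NIA replicate 4 (-0.68, adjusted p = 0.157), AL-NIA replicate 5 (adjusted p = 0.109), CR-NIA replicate 4 (adjusted p = 0.0529) or CR-NIA replicate 6 (adjusted p = 0.0509). Probe 2, also detected on none of those 8 arrays, did not pass in this comparison (adjusted p = 0.0754). Its measured means were -0.57 in CR-NIA and -0.08 in AL-NIA livers, or 1.24-fold apart with CR-NIA at its bound of -0.40. The AL-NIA median of -0.36 lay close to that bound, so the difference in means rests on the higher AL-NIA mice (up to 0.62). Of the 14 macrophage markers, 0 passed here (4 at an unadjusted p under 0.05). Without the 3 libraries 9 were lower in CR-NIA, where 1215 of 7958 genes were lower. The summed macrophage level ran from 21.1 to 60.8 in CR-NIA and from 33.1 to 74.2 in AL-NIA livers. The part of these markers in the result was not tested.

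**Figure D2:**
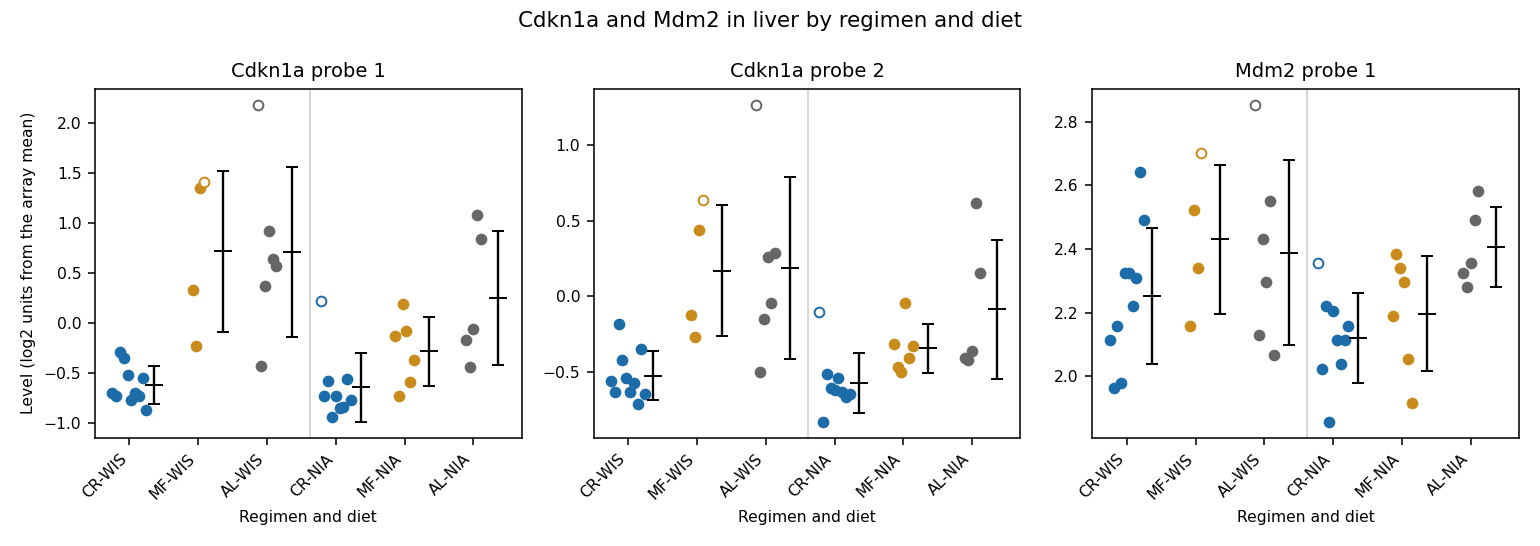
Levels of Cdkn1a probes 1 and 2 and Mdm2 probe 1 in each liver (points; open points are the 3 libraries that stand apart) by group, in log2 units from the array mean, with the group mean and SD as a bar. Cdkn1a probe 1 averages -0.62 in CR-WIS and -0.64 in CR-NIA livers, mostly below background, and 0.71 in AL-WIS and 0.25 in AL-NIA livers, and the Mdm2 groups lie between 2.12 and 2.43 on average.

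No comparison of the meal-fed groups with AL mice or between diets passed for Cdkn1a. MF-WIS minus MF-NIA was 1.00 on probe 1 (SE 0.32, adjusted p = 0.288), and MF-NIA minus AL-NIA was -0.53 (adjusted p = 0.369). CR-NIA minus MF-NIA did not pass on probe 1 (adjusted p = 0.375), and with CR-NIA not above background its size is not given. The difference of CR minus AL between diets did not pass for Cdkn1a (adjusted p = 0.683), with CR levels mostly below background on both diets, and 0 of 9 member probes passed in that test, where 0.0265% of all tested probes did. An unadjusted p under 0.05 was reached by 0 member probes and by 1227 of all 11334 tested probes. The genes most like Cdkn1a over the 40 arrays were Slc16a6, a monocarboxylate transporter family member (r = 0.83, and 0.81 without the 3 libraries), Leprotl1 (0.82 and 0.75) and Litaf (0.80 and 0.76). Litaf averaged 4.43 in CR-WIS, 5.00 in MF-WIS, 5.21 in AL-WIS, 4.47 in CR-NIA, 4.68 in MF-NIA and 5.15 in AL-NIA livers. Its choice by likeness to Cdkn1a used these group levels, so its low means in the restricted groups describe likeness only.

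Mdm2, the ubiquitin ligase that p53 induces and that degrades p53, passed the threshold in no comparison. On probe 1, Mdm2 averaged 2.25 ± 0.21 in CR-WIS, 2.43 ± 0.23 in MF-WIS and 2.39 ± 0.29 in AL-WIS livers. It averaged 2.12 ± 0.14 in CR-NIA, 2.20 ± 0.18 in MF-NIA and 2.41 ± 0.13 in AL-NIA livers (SD). The 5 AL-NIA livers had 2.33, 2.28, 2.36, 2.49 and 2.58, and 8 of the 9 CR-NIA mice, which ran from 1.86 through a median of 2.11 to 2.36, lay below all of them. CR-NIA minus AL-NIA was -0.29 (SE 0.11, adjusted p = 0.0906), and -0.32 (adjusted p = 0.0183) without the 3 libraries that stand apart. On the WIS diet, CR minus AL was -0.14 (adjusted p = 0.402). Probe 2 gave -0.14 for CR-NIA minus AL-NIA (adjusted p = 0.499) and -0.07 for CR-WIS minus AL-WIS (adjusted p = 0.733). The genes most like Mdm2 were Jpt1 (r = 0.78, and 0.68 without the 3 libraries), Sart3 (0.77 and 0.68) and Dpm2 (0.77 and 0.69).

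Gadd45a, a stress-inducible inhibitor of cell cycle progression, passed in no comparison either. Its lowest group was MF-WIS on both probes. On probe 1 the 4 MF-WIS livers had 0.51, 0.45, 0.71 and -0.05, against a range of 0.21 to 1.72 with a median of 0.97 in AL-WIS livers and of 0.53 to 1.24 with a median of 1.12 in MF-NIA livers. The MF-WIS values lay below the AL-WIS median, and the lowest (-0.05) lay below every AL-WIS mouse. All but the highest (0.71) lay below every MF-NIA mouse. MF-WIS still overlapped with both other groups. MF-WIS minus AL-WIS was -0.52 (adjusted p = 0.319) on probe 1 and -0.43 (adjusted p = 0.261) on probe 2, and 0 of 9 member probes passed there, where 0.0441% of all tested probes did. An unadjusted p under 0.05 was reached by 2 member probes and by 1745 of all 11334 tested probes. MF-WIS minus MF-NIA was -0.54 (adjusted p = 0.456) on probe 1 and -0.50 (adjusted p = 0.334) on probe 2. CR-WIS livers averaged 0.86 ± 0.21 and CR-NIA livers 0.64 ± 0.51 on probe 1, and CR minus AL was -0.07 on the WIS diet (adjusted p = 0.858) and -0.14 on the NIA diet (adjusted p = 0.75). The genes most like Gadd45a were Slc17a8 (r = 0.62, and 0.53 without the 3 libraries), Rnf186 (0.59 and 0.52) and Nxpe2 (0.56 and 0.43).

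Ccnd1, which encodes cyclin D1, was higher in restricted than in meal-fed mice on the NIA diet, on all 3 of its probes. On probe 1, Ccnd1 in the 9 CR-NIA livers ran from 2.48 through a median of 3.35 to 4.02. The 6 MF-NIA livers ran from 1.57 through a median of 2.19 to 2.81, and the 5 AL-NIA livers had 3.90, 2.14, 2.08, 3.26 and 2.78. MF-NIA was the lowest of the 6 groups, 7 of the 9 CR-NIA mice lay above every MF-NIA mouse, and AL-NIA mice spanned both. On the WIS diet, the CR-WIS livers ran from 2.42 through a median of 3.19 to 4.06. The 4 MF-WIS livers had 3.65, 2.75, 2.99 and 3.11, and the AL-WIS livers ran from 2.40 through a median of 2.93 to 4.47. These 3 groups overlapped throughout.

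CR-NIA minus MF-NIA was 1.03 for Ccnd1 on probe 1 (2.04-fold, SE 0.29, adjusted p = 0.0102, limma). It was 0.84 on probe 2 (SE 0.28, adjusted p = 0.029) and 0.79 on probe 3 (1.73-fold, SE 0.24, adjusted p = 0.0191). The 3 Ccnd1 probes were the 3 member probes of 9 past the threshold, all higher, where 19% of all tested probes passed in either direction and 5.79% were higher. Without the 3 libraries that stand apart, the differences were 1.12 (adjusted p = 0.00139), 0.94 (adjusted p = 0.00399) and 0.89 (adjusted p = 0.00273). The probe 1 call held without any single library. The probe 2 call was lost without CR-NIA replicate 9 (adjusted p = 0.0627) or MF-NIA replicates 2 (0.0633), 3 (0.066) or 6 (0.0705), and the probe 3 call without MF-NIA replicates 2 (adjusted p = 0.0514) or 6 (0.0594). With median and MAD scaling, the 3 differences were 1.88, 1.62 and 1.16. The median of all probes in this comparison was then 0.19, against -0.07 in the main fit. With neqc, Ccnd1 probe 3 gave 1.46.

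Hepatocyte markers moved the same way as Ccnd1 in this comparison. Of 13 tested hepatocyte markers, 5 were higher in CR-NIA than in MF-NIA livers (8 without the 3 libraries), with a median difference of 0.54 against -0.06 over all genes, of which 6.25% were higher. Their summed level on the linear scale ran from 997 to 2606 in CR-NIA and from 675 to 1331 in MF-NIA livers. The red cell marker Hba-a1 (-2.09, adjusted p = 0.0342) and 1 of 11 endothelial markers, Pecam1 (-0.35, adjusted p = 0.0195), were lower in CR-NIA. None of 14 macrophage and 10 stellate cell markers passed with all arrays (1 and 2 at an unadjusted p under 0.05), and 4 and 3 of them, with 5 of 11 endothelial markers, were lower without the 3 libraries. Over all genes 10.1% were lower with all arrays. Without the 3 libraries 1484 of 7958 genes were lower and 915 were higher. The summed endothelial level ran from 35.5 to 45.4 in CR-NIA and from 35.3 to 40.3 in MF-NIA livers. The median signal per array ran from 135 to 199 in CR-NIA and from 170 to 276 in MF-NIA livers. The part of these differences in the Ccnd1 result was not tested.

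**Figure D3:**
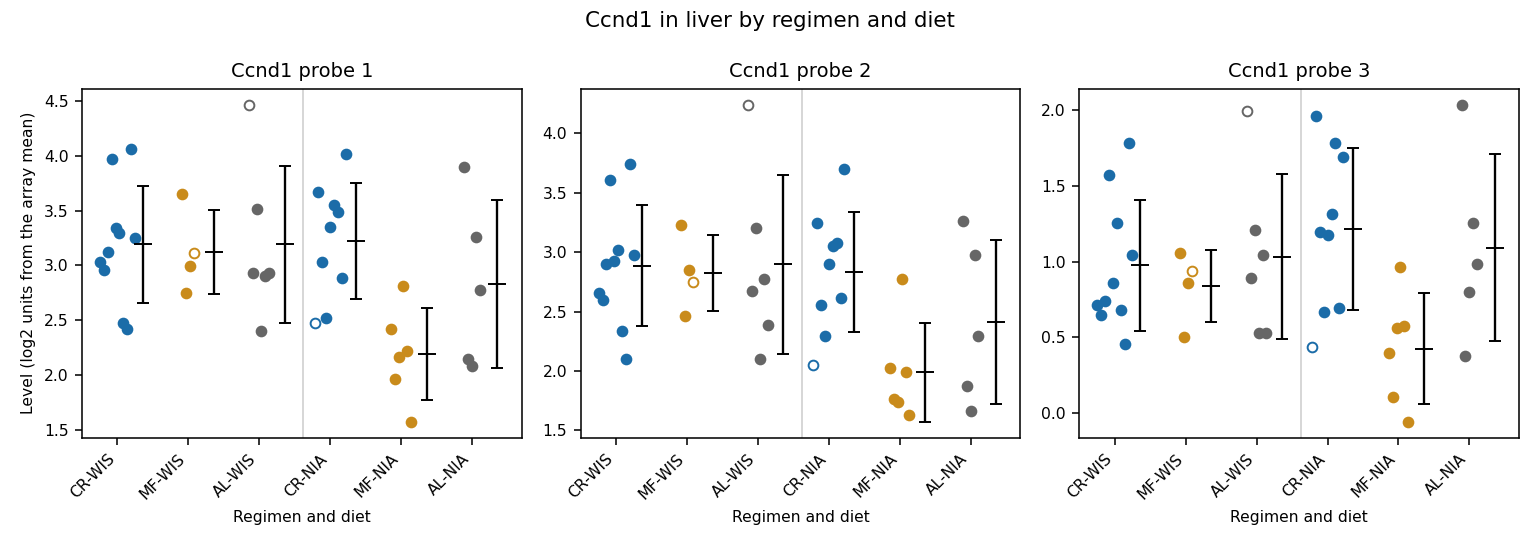
Levels of the 3 Ccnd1 probes in each liver (points; open points are the 3 libraries that stand apart) by group, in log2 units from the array mean, with the group mean and SD as a bar. The MF-NIA group is the lowest on each probe, with a mean of 2.19 on probe 1 against 3.22 in CR-NIA, and the 3 WIS groups lie between 3.13 and 3.19 on that probe.

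On the WIS diet, CR minus MF was 0.07 for Ccnd1 probe 1 (95% interval -0.59 to 0.72, adjusted p = 0.943). Whether the CR minus MF difference itself depended on diet was tested in a contrast added after the data had been seen. For Ccnd1 probe 1 this difference, WIS minus NIA, was -0.97 (SE 0.43), with an unadjusted p of 0.032 and an adjusted p of 0.499, and it was -0.78 (adjusted p = 0.592) on probe 2 and -0.65 (adjusted p = 0.616) on probe 3. Other members had smaller unadjusted p-values in this contrast: Gadd45a probe 2 gave 0.63 (unadjusted p = 0.00793, adjusted p = 0.378), Gadd45a probe 1 gave 0.76 (unadjusted p = 0.0199, adjusted p = 0.444) and Cdkn1a probe 1, with CR levels mostly below background, had an unadjusted p of 0.0183 (adjusted p = 0.437). In that contrast 0 of 9 member probes and 0.00882% of all tested probes passed. A dependence on diet was not shown for any of them. The remaining Ccnd1 differences did not pass: MF-NIA minus AL-NIA was -0.64 (adjusted p = 0.304) on probe 1, and 0 of 9 member probes passed in that comparison, where 2% of all tested probes did. An unadjusted p under 0.05 was reached by 1 member probe and by 2015 of all 11334 tested probes. MF-WIS minus MF-NIA was 0.94 (adjusted p = 0.344), and CR minus AL was 0.00 on the WIS diet (adjusted p = 0.998) and 0.39 on the NIA diet (adjusted p = 0.441). The genes most like Ccnd1 were Ube2d2a (r = 0.68, and 0.62 without the 3 libraries), Bola2 (0.66 and 0.61) and the ribosomal protein gene Rps10 (0.64 and 0.58).

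**Figure D4:**
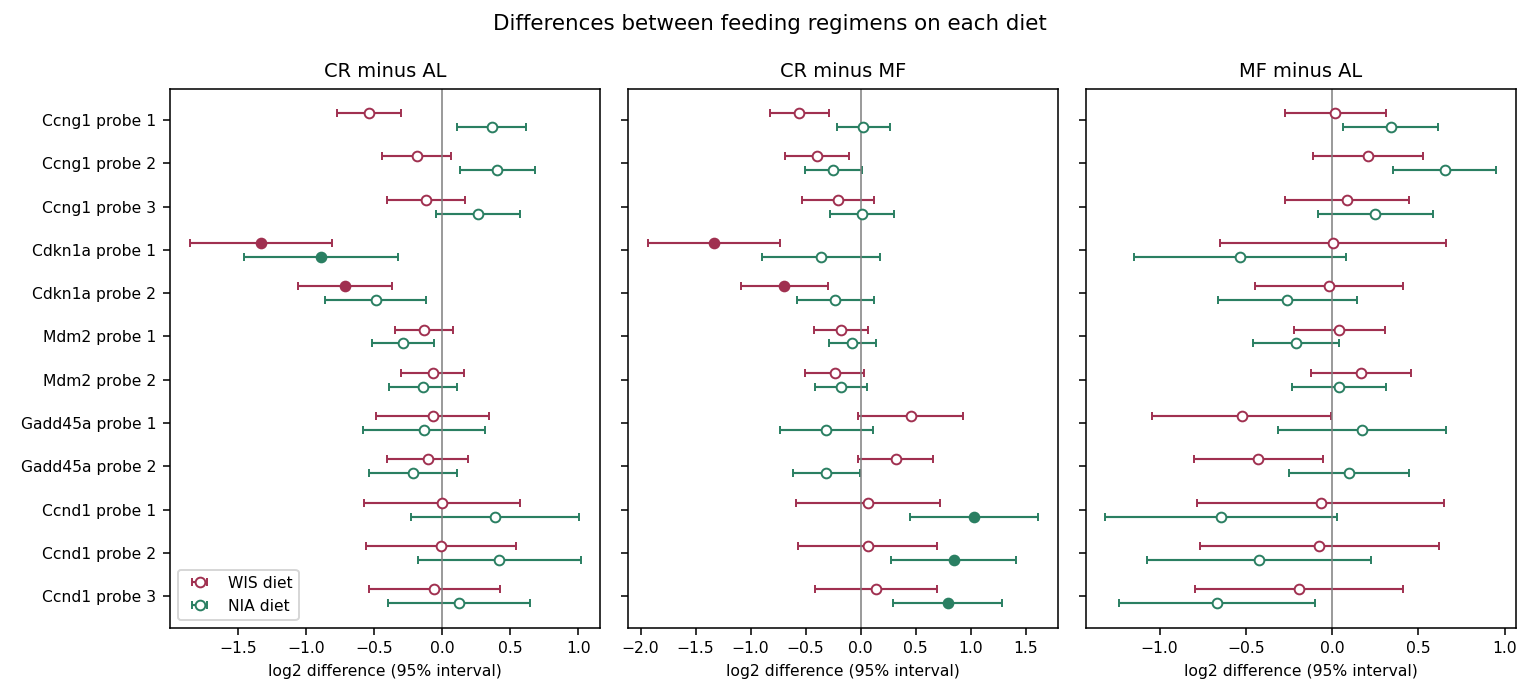
Log2 differences of the 12 tested member probes for CR minus AL, CR minus MF and MF minus AL, with unadjusted 95% intervals, the WIS diet above the NIA diet for each probe. Filled points passed an adjusted p of 0.05 and open points did not or, for Ccng1, were not tested, and the filled points are Cdkn1a (lower in CR) and Ccnd1 (higher in CR-NIA than in MF-NIA, 1.03 on probe 1).

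Between the diets under the same regimen, no member passed. In AL-WIS against AL-NIA livers 0 of 9 member probes passed, where 0.0618% of all tested probes did, and in CR-WIS against CR-NIA livers 0 of 9 passed, where 3.49% did. Cdkn1a probe 1 was above background on 2 of 10 CR-WIS and 0 of 8 CR-NIA arrays, so its levels in these groups cannot be compared. The difference of MF minus AL between diets passed for 0 of 9 member probes, where 0% of all tested probes passed. At an unadjusted p under 0.05 there were 0, 0 and 1 member probes in these 3 tests, against 1436, 1991 and 1026 of all 11334 tested probes.

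Within groups, the members were compared mouse by mouse after removing each group's mean, over 10 pairs of members and all 40 arrays. Cdkn1a and Mdm2 gave Pearson's r = 0.48 (permutation p = 0.00859, adjusted over the 10 pairs 0.0859) and Spearman's rho = 0.35 (permutation p = 0.0434). Their r was 0.29 without the 2 mice farthest from the median and 0.18 without the 3 libraries that stand apart, so the relation rests on those livers. Ccng1 and Cdkn1a gave r = 0.33 (permutation p = 0.0354, adjusted 0.177) and rho = 0.33 (permutation p = 0.0488), with r = 0.38 without the 2 farthest mice and 0.32 without the 3 libraries. Without CR-NIA replicate 1 alone, this r was 0.41 (adjusted permutation p = 0.046). None of the 10 pairs passed after adjustment over all mice.

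The other p53 target genes give the setting for the members, and 17 of the 34 listed could be tested. In CR-NIA against MF-NIA livers, 4 fell and 0 rose, with a median of -0.22 against -0.06 over all genes, of which 10.1% fell and 6.25% rose. The 4 were the death receptor gene Fas (-0.71, adjusted p = 0.00148), Tnfrsf10b, which encodes a receptor for the death ligand TRAIL (-0.58, adjusted p = 0.0272), Zmat3, which encodes a zinc finger RNA-binding protein (-0.26, adjusted p = 0.0187), and Polk, which encodes a translesion DNA polymerase (-0.25, adjusted p = 0.0476). In CR-WIS against AL-WIS livers, 3 fell and 1 rose, with a median of -0.28 (-0.06 without the 3 libraries) against -0.01 over all genes, of which 7.46% fell and 6.28% rose. Fas (-0.53, adjusted p = 0.0221), Polk (-0.33, adjusted p = 0.0153) and the apoptosome gene Apaf1 (-0.67, adjusted p = 0.0317) fell, and the epoxide hydrolase gene Ephx1 rose (0.64, adjusted p = 0.045). The Apaf1 call was lost without the 3 libraries (-0.28, adjusted p = 0.11). In CR-NIA against AL-NIA livers 1 fell, Tnfrsf10b (-0.60, adjusted p = 0.0453), with a median of -0.04, where 6.41% of all genes fell. In CR-WIS against MF-WIS 0 passed, with 4 at an unadjusted p under 0.05, where 2.01% of all genes fell and 1.37% rose. In MF against AL, 0 passed on either diet, with 1 at an unadjusted p under 0.05 on the WIS diet and 2 on the NIA diet, where at most 1.09% of all genes rose and 0.917% fell. Fas and Cdkn1a shared the CR-WIS call against AL-WIS mice. On the NIA diet they shared no call: Fas passed against MF-NIA mice only, and Cdkn1a against AL-NIA mice only.

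Of the regulators of p53, 16 of 24 listed genes were tested, and Trp53 and Mdm4 were not analysed here. In CR-WIS against AL-WIS livers 3 rose and 1 fell: the p53 kinase gene Hipk2 (0.34, adjusted p = 0.0102), the phosphatase subunit gene Ppp2r5e (0.42, adjusted p = 0.0246) and the ubiquitin ligase gene Ube4b (0.31, adjusted p = 0.0454) rose, and Ppm1d, which encodes a phosphatase that switches off p53 signalling, fell (-0.33, adjusted p = 0.0274). Over all genes in that comparison 6.28% rose and 7.46% fell. Without the 3 libraries the calls of Ube4b (adjusted p = 0.0563) and Ppm1d (adjusted p = 0.113) were lost. In CR-NIA against AL-NIA livers Ppp2r5d, another subunit of that phosphatase family (0.40, adjusted p = 0.0091), and the DNA damage kinase gene Atm (0.30, adjusted p = 0.025) rose, and the cyclin G-associated kinase gene Gak fell (-0.22, adjusted p = 0.0254), where 4.96% of all genes rose and 6.41% fell. Ppp2r5d also rose against MF-NIA (0.34, adjusted p = 0.0107), where 6.25% of all genes rose. Ppp2r5e rose in CR-WIS against MF-WIS (0.55, adjusted p = 0.0277), where 1.37% of all genes rose. Without the 3 libraries its difference was 0.35 (adjusted p = 0.111).

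Relatives of Gadd45a and Btg2 were measured for 4 of 7 listed genes. Btg1, an antiproliferative relative of Btg2, fell in all 4 comparisons of CR mice. Against AL mice the differences were -0.49 on the WIS diet (adjusted p = 0.00221) and -0.42 on the NIA diet (adjusted p = 0.00691). Against MF mice they were -0.40 on the WIS diet (adjusted p = 0.0384) and -0.36 on the NIA diet (adjusted p = 0.00844). In the same order, 7.46%, 6.41%, 2.01% and 10.1% of all genes fell. The comparisons on a diet share their CR arrays, so they are not independent. Tob2, a further member of that family, rose in CR-WIS against AL-WIS (0.69, adjusted p = 0.00472), in CR-NIA against AL-NIA (0.57, adjusted p = 0.0159) and in MF-NIA against AL-NIA (0.66, adjusted p = 0.0375). Tob1 rose in MF-NIA against AL-NIA (0.76, adjusted p = 0.0375) and in CR-WIS against AL-WIS (0.56, adjusted p = 0.0262; 0.38 and adjusted p = 0.102 without the 3 libraries). Over all genes, 6.28% rose in CR-WIS against AL-WIS, 4.96% in CR-NIA against AL-NIA and 1.09% in MF-NIA against AL-NIA. Gadd45g did not pass, with -1.07 in MF-NIA against AL-NIA (adjusted p = 0.25), and Gadd45b was not among the tested genes.

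Among 9 tested cyclins other than the members, of 18 listed, Ccng2 and Ccnk passed in some comparisons. Ccng2, the closest relative of Ccng1, averaged 0.66 in CR-WIS, 1.48 in MF-WIS, 1.30 in AL-WIS, 0.60 in CR-NIA, 1.19 in MF-NIA and 0.91 in AL-NIA livers. It fell in CR-WIS against AL-WIS (-0.64, adjusted p = 0.0267), in CR-WIS against MF-WIS (-0.83, adjusted p = 0.0307; -0.74 and adjusted p = 0.0661 without the 3 libraries) and in CR-NIA against MF-NIA (-0.59, adjusted p = 0.0287). Unlike Ccng1, which stood at 1.81 in CR-NIA and 1.45 in AL-NIA livers, Ccng2 was not higher in CR-NIA than in AL-NIA (-0.31, adjusted p = 0.346), and its CR minus AL difference between diets was -0.32 (adjusted p = 0.683). Ccnk, which partners transcriptional kinases, fell in CR-NIA against AL-NIA (-0.31, adjusted p = 0.0234) and against MF-NIA (-0.46, adjusted p = 0.000294). Over all genes, 7.46% fell in CR-WIS against AL-WIS and 2.01% in CR-WIS against MF-WIS. On the NIA diet 6.41% fell in CR-NIA against AL-NIA and 10.1% in CR-NIA against MF-NIA. Ccnd2 and Ccnd3, the other D-type cyclins, passed in no comparison with all arrays. Without the 3 libraries Ccnd3 was higher in CR-WIS than in CR-NIA livers (0.30, adjusted p = 0.0169), where 12.4% of all tested probes passed. The list of cyclin-dependent kinases and inhibitors had 8 tested genes, among them E2f1, E2f3 and Rb1, which are neither. Of these 8 genes, 0 passed by limma in the 6 comparisons between regimens with all arrays. In each, 0 or 1 had an unadjusted p under 0.05. Cdkn1b was not among the tested genes. Without the 3 libraries Cdk2 was higher in MF-NIA than in AL-NIA (0.56, adjusted p = 0.0243) and lower in CR-NIA than in MF-NIA livers (-0.39, adjusted p = 0.0274). There 6.57% and 32.2% of all tested probes passed. Of 14 tested DNA replication and mitosis genes, 1 fell in CR-WIS against AL-WIS, where 7.46% of all genes fell. It was Mcm4, part of the replicative helicase (-0.71, adjusted p = 0.0397, and adjusted p = 0.204 without the 3 libraries). The thymidine kinase gene Tk1 rose in CR-WIS against MF-WIS (0.79, adjusted p = 0.0289), where 1.37% of all genes rose. In CR-NIA against MF-NIA, where Ccnd1 was higher, 0 of these 14 genes passed, with 1 at an unadjusted p under 0.05. Over all genes 6.25% rose and 10.1% fell there. Without the 3 libraries 1 of the 14 was lower.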

How the data were processed

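Liver RNA from 40 male mice in 6 groups was measured on Illumina bead arrays, and signals were extracted with GenomeStudio 2011.1, per the submitters' processing notes. The authors deposited a value table of z-scores, each array centred on 0 with an SD of 1, which was found from the values. They also deposited intensity signals with a detection p-value per probe. The series text speaks of 48 arrays, and the remaining arrays are not analysed here.

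Scores were multiplied by 1.51, the median SD of the log2 deposited signals, to give log2 units. Of 40 samples, 34 matched a signal column of their own group within 0.01 of a score, CR-NIA replicate 1 matched none, and 6 signal columns named for AL-NIA, which has 5 samples, were not used, so no AL-NIA array has a detection call here. Each level therefore reads relative to its array, and a shift shared by all genes is lost. The test is limma 3.58.1 in R 4.3.3 rather than a fit of the signals, with 1 mean per group over all 6 groups, 9 comparisons between groups and 2 differences between diets, and Benjamini-Hochberg adjustment over 11334 probes. A probe counted as measured with a detection p under 0.01 on at least 4 of 34 columns. Of 25697 probes, 23978 have 1 gene symbol, 1719 have none and 0 have several. A listed gene is read by its brightest tested probe, and all probes of the members are given. Genes named beside the members are those most like each member by Pearson's r over all arrays, a short fixed list of relatives, and up to 4 members of each list with the smallest p past the threshold. Of 212 genes in 14 lists, 130 were tested. The members and lists were chosen with earlier results of these data known.

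Alternatives were other scalings and filters, neqc signals, only the groups compared, array weights, the replicate number as a block, the brightest probe per gene, and leaving out each mouse or the 3 libraries that stand apart. The CR minus MF difference between diets and counts of listed genes at an unadjusted p were added after the data had been seen. The scripts were tested on simulated data.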

Additional observations from a re-analysis of the deposited data

Results flagged for a closer look

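Dixon's test marked 4 of 72 sets of group values, in which the highest or lowest mouse lay far from the rest. Chance marks about 1 in 20. On Ccng1 probe 3, MF-NIA replicate 3 had 1.52, against 0.63 to 0.88 in the other MF-NIA mice. On Cdkn1a probe 1, CR-NIA replicate 1 had 0.23, against -0.94 to -0.56 in the other CR-NIA mice. The same mouse had -0.11 on Cdkn1a probe 2, against -0.83 to -0.51 in the others, and it is 1 of the 3 libraries that stand apart. On Ccnd1 probe 2, MF-NIA replicate 4 had 2.78, against 1.63 to 2.02 in the other MF-NIA mice.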

How the results depend on the processing

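The calls of Cdkn1a and Ccnd1 kept their direction under every alternative, and their number depended on the setting. Of the member probes past the threshold, the main numbers were 1 in CR-NIA minus AL-NIA, 2 in CR-WIS minus AL-WIS, 0 in MF-NIA minus AL-NIA, 3 in CR-NIA minus MF-NIA and 2 in CR-WIS minus MF-WIS. With the replicate number as a block, 0 passed in CR-NIA minus AL-NIA (Cdkn1a probe 1 at -0.82, adjusted p = 0.0782) and 0 in CR-WIS minus MF-WIS (Cdkn1a probe 1 at -1.24, adjusted p = 0.0783), and Ccnd1 probe 2 had 0.81 in CR-NIA minus MF-NIA (adjusted p = 0.053). With median and MAD scaling, 2 passed in CR-NIA minus AL-NIA, 5 in MF-NIA minus AL-NIA and 5 in CR-NIA minus MF-NIA. With no detection filter, 0 passed in CR-NIA minus AL-NIA and 1 in CR-WIS minus MF-WIS. With a stricter detection filter, Cdkn1a was not tested and 0 passed in CR-NIA minus AL-NIA, CR-WIS minus AL-WIS and CR-WIS minus MF-WIS. With only the groups compared, 2 passed in CR-NIA minus AL-NIA, and with array weights 3 passed there and 1 in MF-NIA minus AL-NIA. Without the 3 libraries that stand apart, 3 passed in CR-NIA minus AL-NIA, where 27.4% of all tested probes did. Leaving out each mouse gave 0 to 3 in CR-NIA minus AL-NIA, 1 to 3 in CR-NIA minus MF-NIA, 2 in CR-WIS minus AL-WIS, 0 to 2 in CR-WIS minus MF-WIS, and 0 to 1 of the 10 pairs of members in the test of co-variation. The cause of these changes was not tested.

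Over all probes, the number past the threshold ran from 518 to 3103 in CR-NIA minus AL-NIA (main 1316), 305 to 1999 in CR-WIS minus AL-WIS (1479), 30 to 2396 in MF-NIA minus AL-NIA (227), 1606 to 5074 in CR-NIA minus MF-NIA (2158), 5 to 1868 in CR-WIS minus MF-WIS (379) and 228 to 1522 in CR-WIS minus CR-NIA (396). It ran from 0 to 36 in MF-WIS minus AL-WIS (5), 0 to 36 in AL-WIS minus AL-NIA (7), 0 to 33 in MF-WIS minus MF-NIA (0) and 0 to 232 in the difference of CR minus AL between diets (3). Median and MAD scaling moved the median of all probes from 0.05 to -0.17 in MF-NIA minus AL-NIA and from -0.07 to 0.19 in CR-NIA minus MF-NIA. In MF-WIS minus MF-NIA it went from -0.02 to 0.12. The share of calls that were higher was 30.4% in CR-NIA minus MF-NIA, against 51.3% with neqc, 51.4% with quantile normalization and 89.9% with median and MAD scaling. It was 60.4% in MF-NIA minus AL-NIA (32% with quantile normalization and 2.42% with MAD scaling), 40.3% in CR-NIA minus AL-NIA (50.7% and 53.3%), 48.2% in CR-WIS minus AL-WIS (57.9% and 65.6%), 39.3% in CR-WIS minus MF-WIS (56% and 61.1%) and 62.6% in CR-WIS minus CR-NIA (49% and 36.7%). Same-numbered mice of different groups did not deviate together (79 pairs, correlations from -0.576 to 0.517, median -0.023), so the numbers do not pair the mice. Signal over background limits Cdkn1a, detected on 16 of 34 arrays, and Btg2.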
